A study of Parhyale hawaiensis with 10 samples.

Results

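The regions described here were called accessible in whole embryos of the amphipod crustacean Parhyale hawaiensis at each of 3 stages and in none of 6 leg libraries. They were chosen from the deposited peak lists of 9 nuclei libraries. Overlapping or touching peaks of the 9 lists were merged into 280946 regions, and a library counted as having a region when any of its peaks met it over 1 bp or more. Of these regions 16485 were present in all 3 whole embryos, and 615 of the 16485 were absent from all 6 leg lists. The 615 are called leg-absent regions below. A direct overlap of their coordinates with each list gave 615 of 615 in every whole embryo and 0 of 615 in every leg list, so the label holds in the sense of called peaks.

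ATAC-seq uses the Tn5 transposase, which cuts DNA where nucleosomes leave it exposed, so reads pile up at active promoters and enhancers. In embryos many such elements are open in only some cell types, and a leg holds a subset of the tissues of a whole animal. Part of the cutting follows the sequence preference of the enzyme and the copy number of the DNA, which a library made from naked DNA measures.

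All animals belonged to the inbred Chicago-F line, with no treatment given. The whole embryos were single embryos at stages 20, 23 and 24, 1 library each and without replicates. Embryonic legs (3 libraries) were T4 to T8 legs dissected and pooled from stage 25 to 26 embryos, and adult legs (3 libraries) were uninjured T4 and T5 legs of adults. One further library came from naked DNA of a whole adult. Whole embryos were lysed in a different buffer from embryonic legs, and every leg library is older than every whole embryo, so tissue, age and lysis cannot be told apart. A whole embryo also contains its own developing limbs, and in such bulk libraries fewer cells of a type and less accessibility per cell cannot be told apart.

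The nuclei lists held 48324 to 119994 peaks, and their background pileup, a measure of depth recovered from the lists, was 0.233 to 0.555. It was 0.404, 0.233 and 0.555 at stages 20, 23 and 24, 0.394 to 0.526 in embryonic legs and 0.252 to 0.482 in adult legs. The stage 23 embryo and adult leg 3 (0.252) were the shallowest. The narrowest stage 24 peak was exactly 200 bp wide, and the narrowest peaks of the other nuclei lists were 122 to 152 bp wide, and whether stage 24 pileups are on the same scale was not tested. The naked DNA list held 161533 peaks over 89.7 Mb at a background pileup of 5.11, above that of every nuclei list. Intervals on shares cover counting error only, and regions are not replicates of a stage.

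Absence from legs was rare among regions shared by the 3 stages. The 615 leg-absent regions were 3.73% of the 16485 (95% Wilson interval 3.45% to 4.03%). Of regions present at 2 stages, 6249 of 30612 (20.4%) were absent from legs, and of regions present at 1 stage 72591 of 122923 (59.1%). At the other end, 8294 of the 16485 were called in all 6 leg lists, and the numbers called in 1, 2, 3, 4 and 5 leg lists were 812, 928, 1719, 1988 and 2129. The stage 24 list held 119994 peaks, against 60435 at stage 20 and 56606 at stage 23. Among leg-absent regions of exactly 2 stages, 2479 were shared by stages 23 and 24, 2877 by stages 20 and 24, and 893 by stages 20 and 23. The part of list length in these numbers was not tested. These counts follow from the same lists that chose the regions and are descriptions.

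**Figure D1:**
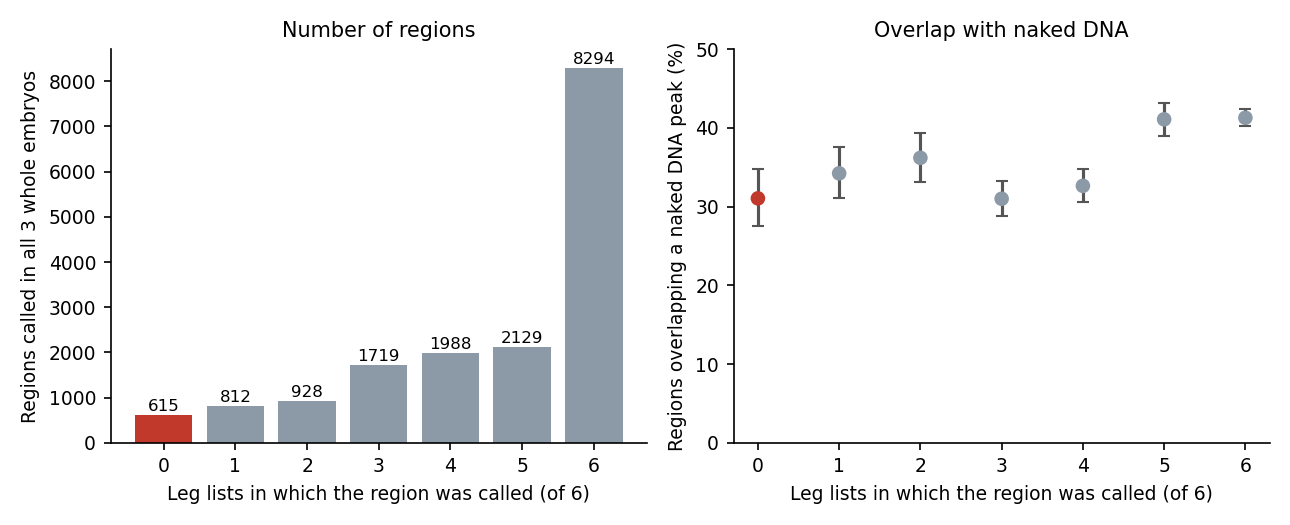
Regions called in all 3 whole embryos, by the number of leg lists (of 6) in which they were also called. Left, number of regions: 615 with no leg list (red) and 8294 with all 6. Right, percentage overlapping a naked DNA peak, with 95% Wilson intervals: 31.1% for the 615 and 41.3% for the 8294.

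One leg list weighed most in how many regions remained. Of the 812 regions called in exactly 1 leg list, 427 (52.6%) were called in embryonic leg 3, whose list of 119487 peaks is the longest of the 6. Embryonic legs 1 and 2 accounted for 119 and 77, and adult legs 1, 2 and 3 for 42, 79 and 68. Without embryonic leg 3 there would be 1034 leg-absent regions, and without any 1 of the other leg lists 657 to 732. Adult leg 1 had more peaks (76268) than adult legs 2 and 3 (49502 and 48324) and held the fewest such regions.

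Regions on either side of the rule differed by a few base pairs. Just inside, the region at 4075329 to 4075657 of phaw_50.283871b lay 1 bp from a peak of embryonic leg 1, with folds of 4.01, 3.53 and 4.81 at stages 20, 23 and 24. The region at 56958715 to 56959226 of phaw_50.283826 lay 2 bp from a peak of adult leg 3, and that at 3245074 to 3245667 of phaw_50.283861b lay 15 bp from a peak of embryonic leg 1. Just outside, a peak of embryonic leg 1 overlapped embryo peaks by 2 bp in the region at 2976532 to 2977023 of phaw_50.283861a, with folds of 3.56, 6.02 and 5.17. Peaks of adult leg 1 and embryonic leg 3 overlapped embryo peaks by 14 and 17 bp in the regions at 1978557 to 1978990 of phaw_50.283829a and at 35195243 to 35195761 of phaw_50.282654b. A leg peak lay within 0.1 kb of 16 of the 615 regions (2.60%), near the 2.58% of all regions present in at least 1 embryo and no leg list.

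Leg-absent regions were of middling strength in every embryo. The fold of a peak, the authors' enrichment over the expected background at its summit, is not on a common scale between lists, so each peak was also given the percentile rank of its fold within its own list. The median rank of the 615 was 47.5 at stage 20, 47.5 at stage 23 and 48.5 at stage 24, close to the middle of each list. The regions called in exactly 1 leg list, the class next to them, had median ranks of 53.0, 50.8 and 56.4. The regions called in 1 to 5 leg lists had median ranks of 68.3, 66.5 and 77.5, and the regions called in all 6 had 85.5, 87.5 and 90.1. The median folds of the leg-absent regions were 4.31, 4.16 and 5.75, with highest values of 17.8, 11.95 and 20.4. In the strongest 10% of each list stood 14, 11 and 26 of them. Leg-absent regions of 1 stage ranked lower, with medians of 28.8, 25.7 and 32.7, and those of 2 stages lay between, at 43.9, 38.6 and 37.5.

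**Figure D2:**
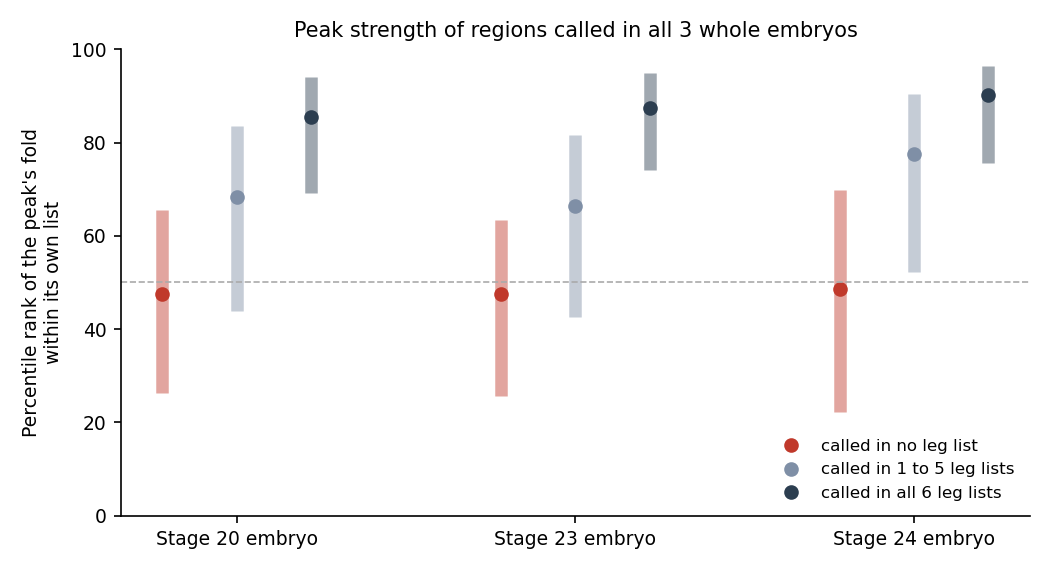
Percentile rank of peak fold within each whole embryo list, for regions called in all 3 whole embryos and in no leg list (red), 1 to 5 leg lists (grey-blue) or all 6 (dark). Points are medians and bars span the middle 50% of regions; the dashed line is rank 50. Leg-absent regions have medians of 47.5, 47.5 and 48.5 and lie below both other classes at each stage.

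In pileup, the number of fragments or cut ends stacked at the summit, the leg-absent regions rested on few counts, as most peaks of these lists do. The median was 6 at stage 20 (4 to 24), 5 at stage 23 (3 to 20) and 9 at stage 24 (4 to 43). Over all regions of each list the medians were 6, 5 and 11, and the regions called in all 6 leg lists had 13, 12 and 30. A q-value of at most 1e-05 was reached by 85 leg-absent regions at stage 20 (13.8%), 76 at stage 23 (12.4%) and 346 at stage 24 (56.3%). Over all regions of each list the shares were 27.1%, 27.5% and 62.9%. It was reached at all 3 stages by 24 regions (3.90%), at 2 by 75, at 1 by 285 and at none by 231 (37.6%). Of the regions called in all 6 leg lists, 4922 (59.3%) reached it at all 3 stages.

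The depth of the leg lists was set against these pileups. Each pileup and its expected value were multiplied by the ratio of the background pileups of a leg list and the embryo. The scaled pileup was rounded down to a whole number and the expected value was not rounded. The resulting p-value was compared with the weakest called in that leg list. Only pairs in which the leg list had the lower background are given, since called peaks that are scaled up pass nearly always. Scaled from stage 24, 89.8% to 97.7% of the 615 passed in 5 leg lists and 66.2% in adult leg 3. Scaled from stage 20, 78.4% passed in embryonic leg 2 and 56.7% in adult leg 3. For embryonic leg 2 the ratio was 0.975, so rounding down took a whole count from each pileup, and its part in the 78.4% was not tested. Among these pairs the share was lowest in adult leg 3. The pileups scaled are those by which the regions were called in the embryos, a choice that favours high values, so the shares are a description and do not measure what depth alone removed.

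The 3 stages did not order the leg-absent regions alike. The highest of its 3 ranks was at stage 20 for 205 regions, at stage 23 for 187 and at stage 24 for 223. Across the 615 regions, which share libraries and are not independent, Spearman's rho of the ranks was 0.145 for stages 20 and 23, 0.241 for stages 20 and 24 and 0.187 for stages 23 and 24. Across the 8294 regions called in all 6 leg lists the values were 0.529, 0.265 and 0.391. The ranks of weak peaks rest on a few counts each, and the part of that in the lower rho was not tested.

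Leg-absent regions were made of peaks of ordinary width. As merged regions their median width was 400 bp (210 to 1298 bp), against 510 bp in regions called in 1 to 5 leg lists and 670 bp in regions called in all 6. The width of a merged region depends on how many lists contribute to it, which is 3 here and up to 9 in the other classes. The strongest peak of each stage had a median width of 218, 230 and 267 bp at stages 20, 23 and 24 in leg-absent regions, close to the 220, 229 and 260 bp over all regions of each list. It was 357, 368 and 432 bp in regions called in all 6 leg lists and 185, 193 and 223 bp in leg-absent regions of 1 stage. In 548 of the 615 (89.1%) the strongest peaks of the 3 stages shared a common stretch, with a median of 137 bp. In the other 67 the strongest peaks shared no stretch common to all 3 stages. The highest summits of the 3 stages lay a median of 135 bp apart in leg-absent regions, and within 150 bp in 353 of them (57.4%). In regions called in all 6 leg lists the median was 79.5 bp and the share within 150 bp was 69.9%.

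Naked DNA, which the rule did not use, overlapped 191 of the 615 leg-absent regions, 31.1% (95% Wilson interval 27.5% to 34.8%). Among all 280946 regions 17.1% overlapped a naked DNA peak. The share was 41.3% (40.2% to 42.4%) in regions called in all 3 embryos and all 6 leg lists and 35.3% (34.2% to 36.3%) in those called in 1 to 5. Among leg-absent regions it was 20.7% (19.7% to 21.7%) for 2 stages and 13.1% (12.8% to 13.3%) for 1 stage. Over all scaffolds, the leg-absent regions of 3 stages stood between the regions called in all 6 leg lists and the leg-absent regions of fewer stages. Their interval did not overlap those of either. On scaffolds of at least 1 Mb alone it did overlap that of the regions called in all 6 leg lists (26.7% to 34.5% against 32.5% to 34.7%). Over all scaffolds it also overlapped that of the regions called in 1 to 5 leg lists, and regions called in exactly 3 leg lists had 31.0%. A q-value of at most 1e-05 as the threshold in all lists also shortens the leg lists. It gave 79 regions, which are not a subset of the 615, and 62.0% of these overlapped naked DNA. Without the requirement of stage 20 the share was 19.9%, in 3086 regions. Of the 24 among the 615 that reached that q-value at all 3 stages, 10 (41.7%, Wilson interval 24.5% to 61.2%) overlapped naked DNA.

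Wide regions meet naked DNA peaks more easily, so single summit positions were compared as well. The stage 20 summit of 152 leg-absent regions (24.7%) lay inside a naked DNA peak, the stage 23 summit of 151 (24.6%) and the stage 24 summit of 139 (22.6%). In regions called in all 6 leg lists the shares were 34.3%, 34.3% and 33.8%. In leg-absent regions of 1 stage they were 15.6%, 13.0% and 6.86%. The naked DNA peaks under leg-absent regions had a median fold of 3.11, and those under regions called in all 6 leg lists 8.17, a comparison within the naked DNA list. Within the 615, overlap showed no order with strength and was 28.3%, 34.1% and 30.7% in the weakest, middle and strongest 205 by mean rank, with overlapping Wilson intervals. Leg-absent regions with a naked DNA peak had median ranks of 51.2, 47.9 and 43.7 at stages 20, 23 and 24, and those without had 43.9, 46.7 and 50.5.

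Most leg-absent regions lay on large scaffolds. By the largest peak end in any list, 535 (87.0%) were on scaffolds of at least 1 Mb, 22 on scaffolds of 10 kb to 1 Mb and 58 (9.43%) on scaffolds under 10 kb. The shares at least 1 Mb and under 10 kb were 88.9% and 7.81% for all regions, and 82.0% and 11.3% for regions called in all 6 leg lists. The naked DNA overlap of leg-absent regions had overlapping intervals in the 3 size classes, at 30.5% (163 of 535), 31.8% (7 of 22) and 36.2% (21 of 58, interval 25.1% to 49.1%). Regions called in all 6 leg lists had 33.6% on scaffolds of at least 1 Mb, 78.7% from 10 kb to 1 Mb and 74.9% under 10 kb. In the largest size class their interval, 32.5% to 34.7%, overlapped the 26.7% to 34.5% of leg-absent regions. Under 10 kb the share was thus lower in leg-absent regions than in the regions called in all 6 leg lists, with intervals that did not meet. Among all regions, from large to short scaffolds, a naked DNA peak was met by 14.9%, 37.8% and 33.2%. The intervals of leg-absent regions included these shares in both size classes below 1 Mb. In the largest size class the interval of leg-absent regions, 26.7% to 34.5%, lay above the 14.9% of all regions. The 58 regions on scaffolds under 10 kb were on 58 different scaffolds, of which 51 carried no leg peak at all, and 41 lay on scaffolds under 1 kb. The rule already bars a leg peak from the region, and on the shortest scaffolds little else is left to carry one. The 51 thus follow in part from the rule and were not compared with other short scaffolds.

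**Figure D3:**
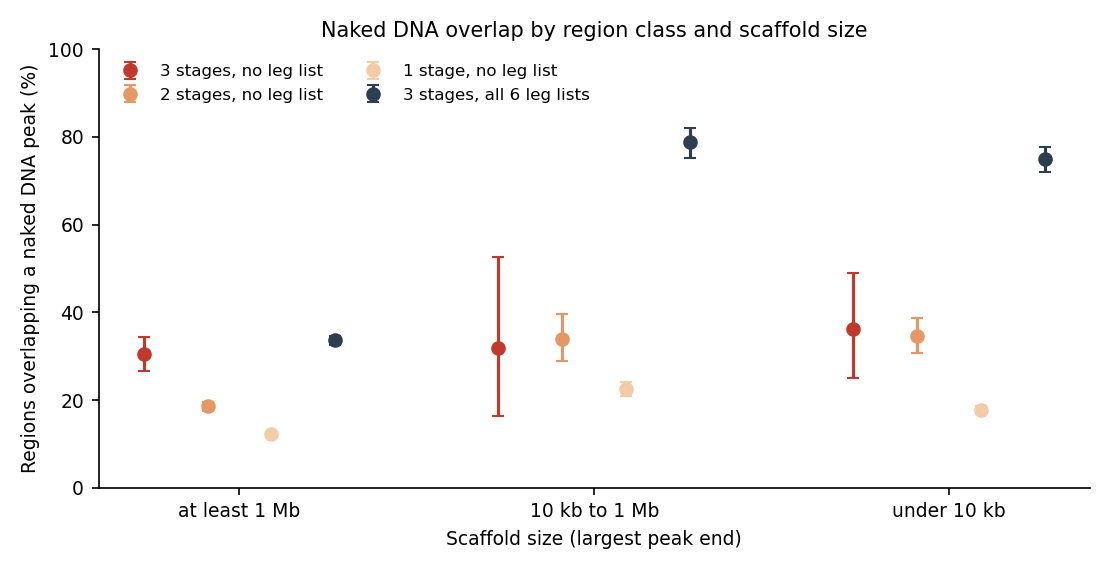
Percentage of regions overlapping a naked DNA peak by scaffold size, with 95% Wilson intervals, for leg-absent regions of 3 stages (red), 2 stages and 1 stage (orange and pale orange) and for regions of all 3 embryos and all 6 leg lists (dark). Leg-absent regions of 3 stages have 30.5%, 31.8% and 36.2% from large to short scaffolds, and the regions of all 9 nuclei lists have 33.6%, 78.7% and 74.9%.

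The strongest leg-absent regions without naked DNA overlap were ranked by mean rank over the 3 stages, on scaffolds of at least 1 Mb. The first lay at 1176225 to 1176671 of phaw_50.283861a, with folds of 10.3, 7.12 and 20.4 and pileups of 14, 9 and 43 at stages 20, 23 and 24. Its 3 summits lay within 16 bp, and the nearest leg peak, of embryonic leg 1, was 1138 bp away. The second, at 11073842 to 11074179 of phaw_50.282260a, had folds of 6.83, 8.28 and 13.9 and pileups of 11, 11 and 38. A pair of regions of phaw_50.283821 stood among the first 5, at 15350979 to 15351409 (folds 7.66, 8.28 and 10.5) and at 10636525 to 10636943 (7.28, 5.42 and 12.4). Between them stood the region at 29323825 to 29324287 of phaw_50.283468b, with folds of 7.06, 7.01 and 11.2 (pileups 12, 11 and 26).

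The first 12 of these regions were compact. Their widths were 293 to 463 bp and their summits at the 3 stages lay within 3 to 83 bp of each other, against a median of 135 bp over all 615. Folds were 5.70 to 10.3 at stage 20, 4.98 to 8.28 at stage 23 and 8.06 to 20.4 at stage 24. A q-value of at most 1e-05 was reached at all 3 stages by 8 of the 12. A leg peak lay within 5 kb of 9 of these 12, picked by rank and scaffold size, against 34.5% of all 615. The closest was at 427 bp, so absence of a leg peak at a region did not always mean a stretch without leg peaks. The remaining 7 were at 52322229 to 52322560 of phaw_50.283869c, 3437466 to 3437862 of phaw_50.283852, 47301535 to 47301917 of phaw_50.283811, 23920121 to 23920548 of phaw_50.283867b, 34383942 to 34384234 of phaw_50.283863b, 5642048 to 5642363 of phaw_50.282976d and 11032278 to 11032684 of phaw_50.282997b. The gene content of these places was not analysed here.

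Leg-absent regions that overlap naked DNA included the region with the highest mean rank of all. It lay at 257 to 716 of phaw_50.002100, a scaffold on which no peak reaches beyond 8183 bp, with folds of 14.96, 10.8 and 16.5 and pileups of 20, 13 and 26. Next came the regions at 5721604 to 5722056 of phaw_50.283866 (folds 7.35, 8.51 and 15.9) and at 8125463 to 8125971 of phaw_50.283865b (7.35, 7.61 and 16.7), which lay 12067 and 16489 bp from the nearest leg peak. The regions at 9403597 to 9403995 of phaw_50.282695a and at 13875 to 14458 of phaw_50.102022 completed the first 5. On scaffolds under 10 kb, phaw_50.002100 was followed by regions on phaw_50.157194, phaw_50.055357, phaw_50.096753 and phaw_50.038640. On these 4 scaffolds no peak reached beyond 583 bp, so the region made up most of the stretch that carried peaks. Among them, the region at 1 to 310 of phaw_50.157194 had folds of 12.1, 4.86 and 10.3 and did not overlap naked DNA.

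Leg peaks nearby were then counted, since the rule removes overlap with a leg peak but says nothing of the surroundings. A peak of some leg list lay within 5 kb of 212 of the 615 regions, 34.5% (95% Wilson interval 30.8% to 38.3%), and within 20 kb of 472 (76.7%). Over all regions present in at least 1 embryo and no leg list, 44.2% had a leg peak within 5 kb and 79.1% within 20 kb, the second near the share of the 615. The share was 41.3% (40.1% to 42.5%) for leg-absent regions of 2 stages and 44.6% (44.2% to 44.9%) for those of 1 stage. The median distance to the nearest leg peak was 7429 bp for the 615, 6562 bp for 2 stages and 6059 bp for 1 stage. Leg-absent regions of 3 stages thus had a leg peak within 5 kb in a smaller share than the leg-absent regions of fewer stages, a gap that was small at 20 kb and not seen at 0.1 kb.

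Embryonic and adult legs were compared by the share of the 615 regions with a peak of each list within 5 kb. The shares were 16.1%, 10.7% and 18.5% for embryonic legs 1 to 3, against 9.11%, 10.7% and 8.78% for adult legs 1 to 3. Embryonic legs 1 and 3 lay above every adult leg list, and embryonic leg 2 tied with adult leg 2 at 66 regions. On average a list of embryonic legs reached 15.1% ± 3.99 and one of adult legs 9.54% ± 1.05 (SD, n = 3 libraries each). They differed by 5.58 percentage points, p = 0.2 (exact two-sided permutation test, n = 3 each; the smallest p this design allows is 0.1), so it was not beyond the spread between libraries. With the 48324 strongest peaks taken from every nuclei list, which left 509 leg-absent regions, the means over those 509 were 9.82% for embryonic and 10.7% for adult legs, a difference of -0.92 percentage points in the other direction (exact p = 0.4, n = 3 each). That setting shortens the embryo and leg lists and changes the regions at once, and which of these moved the sign was not tested. Within 20 kb lay a peak for 47.5% of regions by the mean of embryonic legs, against 32.6% by that of adult legs (exact permutation p = 0.1). The difference within 5 kb was larger in leg-absent regions of fewer stages. For those of 1 stage the means were 22.8% and 13.6%, 9.20 percentage points apart (exact permutation p = 0.1). For those of 2 stages they were 20.6% and 12.3%, 8.23 percentage points apart (exact permutation p = 0.1). More nearby peaks of embryonic legs were thus not particular to the 615.

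**Figure D4:**
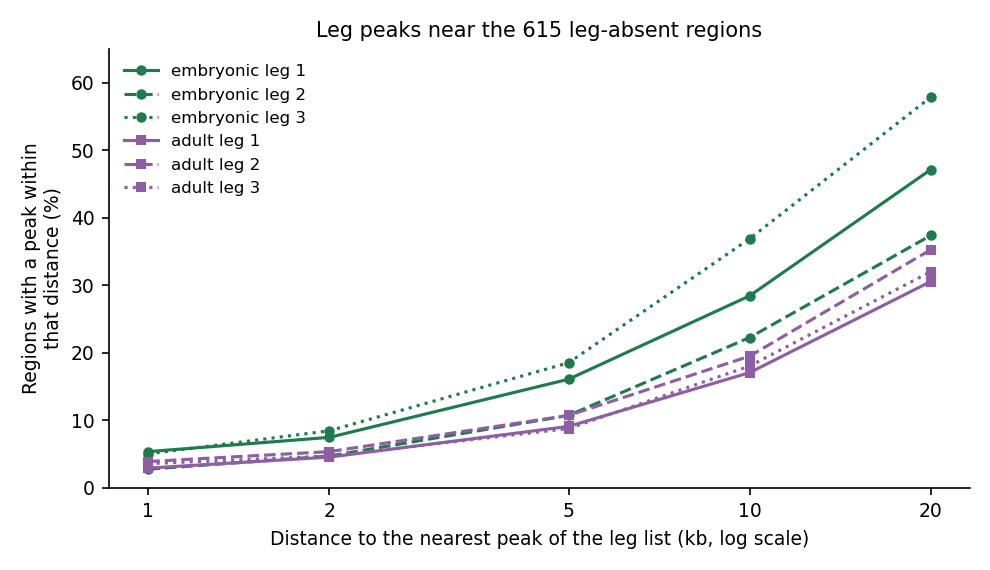
Percentage of the 615 leg-absent regions with a peak of each leg list within 1, 2, 5, 10 and 20 kb (log axis), for 3 embryonic (green) and 3 adult (purple) leg lists. Embryonic leg 3, the longest list, is highest from 2 kb on, reaching 57.9% at 20 kb, and embryonic leg 2 runs close to the adult lists at 2 and 5 kb.

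Leg-absent regions were spread over 186 scaffolds, 107 of them among the 158 scaffolds of at least 1 Mb. Neighbouring regions on a scaffold were a median of 1180 kb apart, 35 of 429 neighbouring pairs lay within 100 kb and 7 within 10 kb. Of 24997 windows of 1 Mb with a region, 498 held a leg-absent region, of which 409 held 1, 69 held 2, 17 held 3 and 3 held 5 or more. Windows were taken within scaffolds, so they include many scaffolds shorter than 1 Mb, and these numbers are not a density per Mb. The window with the most, at 4 to 5 Mb of phaw_50.282997b, held 7 of its 30 regions shared by the 3 stages. Windows at 9 to 10 Mb of phaw_50.282543b and at 7 to 8 Mb of phaw_50.283468b held 5 each, of 16 and 11. Of the 17 windows tied at 3, the first by name were at 43 to 44 Mb of phaw_50.000203b and at 19 to 20 Mb of phaw_50.001137b.

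In the leading window the 7 regions lay along 741 kb in 3 places. A pair at 4070927 to 4071513 and 4072810 to 4073106 lay 1296 bp apart and 17133 and 19016 bp from the nearest leg peak, and the first of the pair overlapped naked DNA. Another 4 lay between 4266661 and 4329371, and the strongest of these at stage 20, at 4328983 to 4329371, had folds of 8.69, 4.78 and 5.36 and overlapped naked DNA. The last, at 4811908 to 4812181, lay 115 bp from a leg peak. The window was not empty of leg peaks: it held 41, 34 and 48 regions of embryonic legs 1 to 3 and 24, 30 and 21 of adult legs 1 to 3, beside 77, 57 and 71 of the embryos at stages 20, 23 and 24. In the window on phaw_50.282543b all 5 regions overlapped naked DNA; in that on phaw_50.283468b 3 of 5 did.

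**Figure D5:**
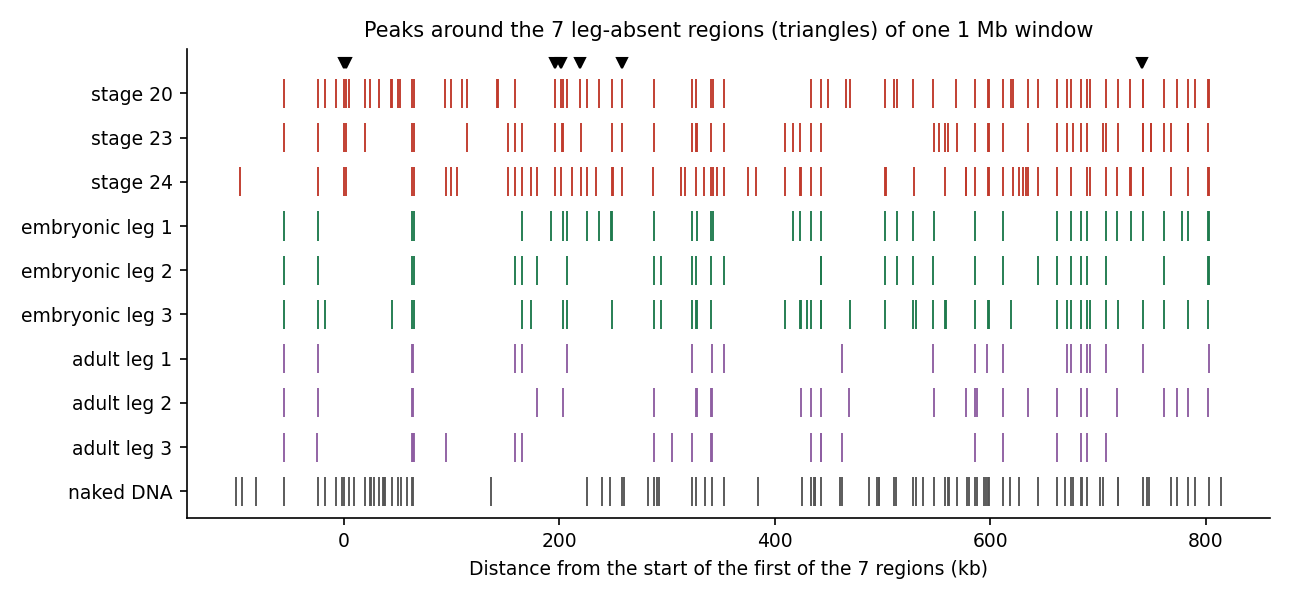
Peaks of the 10 lists (1 tick per peak) along 941 kb around the 7 leg-absent regions (triangles) of the 1 Mb window with the most, as distance from the start of the first. Ticks of all 3 embryo rows (top, red) stand under each triangle and no tick of a leg row (green, embryonic; purple, adult) overlaps those regions; embryonic legs 1 to 3 have 40, 31 and 47 peaks in the map and adult legs 1 to 3 have 23, 29 and 23.

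Some scaffolds held many more leg-absent regions than others. On the 102 scaffolds of at least 1 Mb with 50 or more regions shared by the 3 stages, the leg-absent share of those regions ran from 0% to 21.4%, with a median of 3.16%. The highest was on phaw_50.283829b, where 18 of 84 were leg-absent and 6 of the 18 overlapped naked DNA. It was followed by phaw_50.283743c with 9 of 71 (12.7%) and phaw_50.283821 with 13 of 104 (12.5%). No leg-absent region lay among 66 on phaw_50.283874a or among 50 on phaw_50.283874c, counts that allow shares of up to 4.55% and 6% (3 counts of the total).

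The 18 regions of phaw_50.283829b were scattered from 582976 to 11149733. The strongest by stage 24 fold were at 1003676 to 1004261 (folds 5.47, 5.21 and 11.3) and at 5717174 to 5717565 (6.47, 3.28 and 10.4). Peaks of every kind were unevenly shared on this scaffold: of each 10000 peaks in a list, 67.8, 60.1 and 51.9 lay here at stages 20, 23 and 24, against 31.5, 23.3 and 32.8 in embryonic legs 1 to 3 and 24.5, 31.5 and 34.8 in adult legs 1 to 3. All 3 embryo lists lay above all 6 leg lists. They did so too on phaw_50.283743c (40.6 to 58.5 against 18.7 to 30.9) and phaw_50.283821 (65.2 to 77.2 against 45.6 to 52.6). Of the regions of 1 or 2 stages on phaw_50.283829b, 68.6% were absent from legs, against 51.3% over all scaffolds. On phaw_50.283743c and phaw_50.283821 the shares were 69.4% and 62.6%. The scaffolds with no leg-absent region were not alike in this. On phaw_50.283874a the numbers per 10000 peaks were 33.6, 30.0 and 26.7 in the embryos, overlapping the 30.8, 28.7 and 29.9 of embryonic legs and below the 38.7, 36.2 and 38.9 of adult legs. On phaw_50.283874c the numbers per 10000 peaks were 24.99, 30.0 and 29.4 in the embryos, below the 38.7, 40.5 and 35.6 of embryonic legs and the 50.3, 37.8 and 49.7 of adult legs, and 31.4% of its regions of 1 or 2 stages were absent from legs. These scaffolds were singled out by the leg-absent share, which rests on the same lists, so the values are given without a test.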

How the data were processed

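The authors deposited 1 MACS2 peak list per library, without pooling. Per the submitters' processing notes the tools were MACS2 2.2.7.1, Picard, Bowtie2 2.5.4, bedtools 2.31.1 and SAMtools 1.21. The role of each, the genome build, the control and any read shift are not given here or in the sources used. The deposited fold is a ratio; its p-value and q-value, as deposited, are −log10 values, with a lowest −log10 q of 1.3 (q of 0.05). The deposited score and the other deposited columns (strand, names) gave no result. Depth is not stated; whole-number pileups and expected pileups were solved from fold and p (99.6% to 100% of peaks within a tolerance of 0.002 on −log10 p, wider for large values), and the most frequent expected pileup was taken as background.

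Rows with one start and end were counted as 1 peak, at its highest summit. The members, the classes and the rule for named regions (the 12 strongest by mean rank without naked DNA on large scaffolds, 5 with naked DNA, 5 on short scaffolds, the fullest 1 Mb windows, 3 regions just inside and 3 just outside the rule) were chosen with earlier results of these data known. Leg libraries were compared with exact permutation tests; no label states that the replicates are independent animals or pools, so a p-value covers the spread of these libraries, which may be technical. No pair of nuclei lists shared over 0.364% of the shorter list's peaks exactly. Scripts (Python 3.11.15, numpy 2.4.6, pandas 2.3.3, scipy 1.17.1, matplotlib 3.10.9) were tested on simulated lists, and overlaps were checked with bedtools 2.31.1. Alternatives changed the threshold, list length, overlap, merging, scaffolds, naked DNA, libraries, stages, summits and distance. Sequence of the regions was not used here.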

Additional observations from a re-analysis of the deposited data

How the results depend on the processing

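The number of leg-absent regions was 79 with a q-value of at most 1e-05, 3086 without the stage 20 embryo, 3479 without stage 23, 1490 without stage 24 and 353 with the highest summits of the 3 stages within 150 bp, against 615; each of the stage settings drops a requirement and so admits more regions. It was 657 to 1034 when 1 leg library was left out, the highest without embryonic leg 3. Taking equally many peaks from each list gave 509, keeping scaffolds of at least 1 Mb gave 535 and leaving out peaks that overlap naked DNA gave 443. Requiring overlap of at least 50% or merging embryo peaks alone left 615, the first by construction, since a region holds its peaks whole.

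The naked DNA share was 62.0% with the stricter q-value, 25.7% with the same number of peaks, 25.9% with an overlap of at least 50%, 19.9% without stage 20 and 21.0% without stage 23, against 31.1%; it was 28.1% to 35.0% when 1 leg library was left out, the highest without adult leg 2. Without peaks overlapping naked DNA it could not be given. The stricter q-value was applied to the leg lists too, so its regions are not a subset of the 615. The cause of these shifts was not tested.

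The difference between embryonic and adult legs in nearby peaks reversed to -0.92 percentage points with the same number of peaks, over 509 regions, and was 4.27 to 8.71 when 1 leg library was left out, the highest without embryonic leg 2. It was 6.42 on scaffolds of at least 1 Mb and 7.30 without peaks that overlap naked DNA (exact permutation p = 0.1 each). Its sign was kept in 14 settings and reversed in 1, that with the same number of peaks. The 14 are not independent checks. Blocking by replicate number, a larger required overlap and merging embryo peaks alone left both the regions and the 5.58 unchanged. The settings without 1 leg library share most of their lists. With the replicate number as a replicate block the difference was 5.58 with p = 0.5 (exact sign-flip permutation test, where the smallest p of 3 pairs is 0.25). Same-numbered libraries did not deviate together (correlations of -0.02, -0.02 and 0.005). That check cannot tell whether they share animals or a batch, which no label states. The regions rest on median pileups of 6, 5 and 9 at stages 20, 23 and 24, and the part of depth in their absence from legs was not tested.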
